A study of Arabidopsis thaliana with 18 samples.

Results

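The 7 genes AT4G26010, AT1G34510, AT3G49960, AT5G64120, AT5G66390, AT4G30170 and AT1G30870 are loci of Arabidopsis thaliana that encode class III peroxidases and are described here as root peroxidases. They were chosen by locus, after earlier results of these arrays had shown that their signals were lower in plants in which the transcription factor DUO1 was induced. Each gene was measured by 1 probe set of its own, so the members were 7 of the 22746 probe sets tested and 7 of the 13287 genes with such a probe set. They belong to 73 class III peroxidase loci listed from general knowledge, of which 48 of the other 66 had a probe set of their own, 7 lay on 4 shared probe sets and 11 had no named probe set in the annotation used. The RefSeq gene table named 2 of the 7 as peroxidases, AT5G64120 with the synonym PRX71 and AT5G66390 with the synonym PRX72.

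Class III peroxidases are secreted plant enzymes of a large family, which use hydrogen peroxide to oxidise phenolic compounds and can also produce reactive oxygen. In the cell wall they crosslink lignin monomers, phenolics and structural proteins, which stiffens the wall, or they help to loosen it. Many of the genes are transcribed in roots, where members of the family take part in root hair growth, lignification and suberisation.

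The arrays measured RNA of whole plants of the Col-0 background that carried DUO1 in the inducible vector pMDC7, and DUO1 is a MYB factor of the male germline that seedlings do not normally use. The 6 groups held 3 arrays each: DUO1 induced for 6 h, 12 h and 24 h, and plants without induction at 6 h, 12 h and 24 h. All groups shared the T-DNA, plates with hygromycin at 20 µg/ml and no sugar, 3 days in the cold and 12 days in constant light at 22 °C before treatment, and growth stage 1.04. No group had the inducer without the construct, and the labels name neither inducer nor mock treatment. Whether the 3 replicates of a group were grown apart is not stated either, so a p-value covers only the spread between these samples, which may be technical. Since whole plants were sampled, the arrays do not show the organ of a transcript, and fewer cells of a type and less RNA per cell cannot be told apart.

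The values were MAS5 signals, a linear measure of probe set brightness, with array medians of 34.3 to 39.5. A signal was taken as above background where it exceeded the highest of 27 control probe sets with no spiked target on that array, a level of 3.30 to 10.1, which 72.3% to 83.6% of probe sets did. The number of arrays limits the precision. The sperm cell histone gene MGH3, a direct target of DUO1, was at least 27.6-fold higher in induced plants at 6 h and at least 124-fold higher at 24 h (limma, adjusted p = 2.78e-06 and 1.09e-08). Such a bound sets the mean of the higher group against the background levels of the other group's arrays, as means of log2 values, where the other group lay at background on all 3 arrays. The ratio of 3′ to 5′ signal of the GAPDH control, a measure of RNA integrity, was 1.35 to 1.51 in induced plants and 1.18 to 1.33 in plants without induction at 12 h. The ranges overlapped at 6 h and 24 h, and the part of this ratio in the 12 h results was not tested.

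All 7 peroxidase genes had a lower mean in induced plants at 6 h, 12 h and 24 h. Because this comparison chose them, their values in it are a description without a test. The groups did not overlap for 7, 7 and 6 of the 7 genes at 6 h, 12 h and 24 h, where 6.02%, 9.88% and 12.1% of all probe sets had every induced array below every array without induction. The median log2 change of the 7, induced minus not induced, was -1.79, -2.31 and -2.25, and over all probe sets it was 0.04, 0.04 and 0.02. For the 5 genes above background on every array alone, the median was -1.10, -2.31 and -2.25, so the 6 h value of the 7 rests on 2 genes near background. In each of these 5 genes the lowest of the 9 arrays without induction lay above the highest of the 9 induced arrays. The share of all probe sets so separated over all times is not given here, so this too is only a description.

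**Figure D1:**
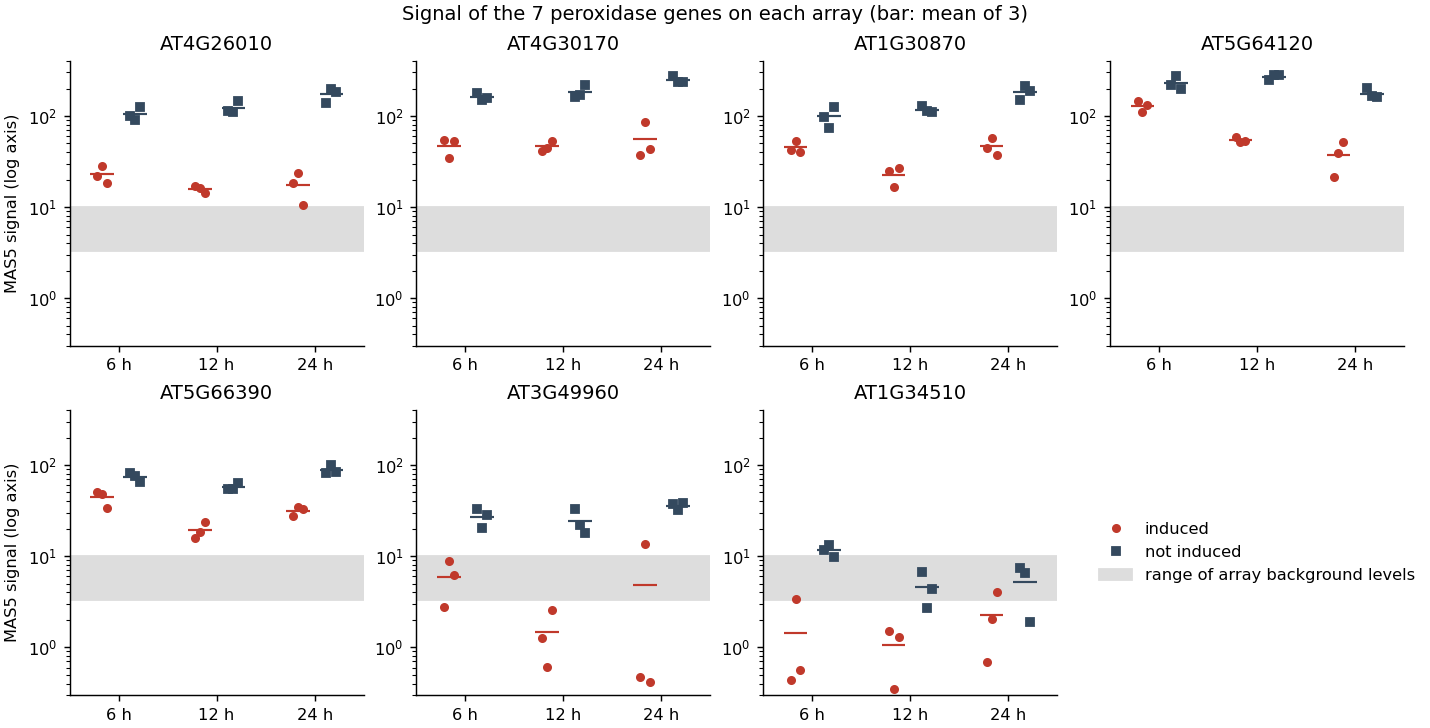
MAS5 signal on a log axis against time for the 7 peroxidase genes, with 1 point per array (circles: induced, squares: not induced), bars for the mean of 3 and a grey band for the range of array background levels, 3.30 to 10.1. The points of AT4G26010, AT4G30170, AT1G30870, AT5G64120 and AT5G66390 stay above the band in both groups, while induced arrays of AT3G49960 and AT1G34510 lie in or below it.

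AT5G64120 encodes PRX71, a peroxidase that acts on the cell wall and is known to restrict growth. At 6 h its signal was 147, 109.8 and 133 in induced plants and 220.3, 273 and 198 in plants without induction. After 12 h it was 58.9, 51.4 and 53.1 in induced plants, against 251, 281 and 279 in plants without induction. At 24 h the induced arrays had 21.3, 39.7 and 52.2 and the arrays without induction 203, 164 and 161. The groups were apart at every time, narrowly at 6 h and widely later, and all 3 induced arrays of 12 h and of 24 h lay below those of 6 h. The log2 change was -0.82 ± 0.21 SE at 6 h, -2.31 ± 0.21 SE at 12 h and -2.31 ± 0.21 SE at 24 h. The 6 h change was 35.7% of the 24 h change on the log2 scale, and the change with induction at 12 h minus that at 6 h was -1.49 ± 0.30 SE.

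AT5G66390 encodes PRX72, a peroxidase known for its part in lignification. The induced arrays of 6 h read 50.5, 48.1 and 33.7, and those without induction 81.6, 75.8 and 65.9. Its signals at 12 h were 15.9, 18.3 and 24.0 in induced plants and 54.1, 54.5 and 63.3 in plants without induction. At 24 h they were 27.5, 34.8 and 32.6 in induced plants and 81.4, 101 and 84.6 in plants without induction. Here too no arrays overlapped at any time, and the level in induced plants was lowest at 12 h: its log2 difference was -1.18 at 12 h against 6 h and 0.72 at 24 h against 12 h, without overlap of arrays. The log2 change with induction was -0.77 ± 0.18 SE, -1.58 ± 0.18 SE and -1.49 ± 0.18 SE at 6 h, 12 h and 24 h, and the 6 h value was 51.7% of the 24 h value. At 12 h and 24 h these were the smallest changes of the 5 genes above background, and at 24 h induced plants had 35.6% of the signal of plants without induction, as a ratio of geometric means.

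AT4G26010 encodes a peroxidase linked to root hair growth, and among the 5 genes above background it had the most negative log2 change at each time. At 6 h it had 22.0, 28.4 and 18.5 in induced plants and 99.3, 90.0 and 125 in plants without induction. At 12 h the signal was 17.1, 16.2 and 14.4 in induced plants, against 113, 109 and 146 without induction. In the 24 h samples it was 18.5, 23.7 and 10.6 with induction and 138, 199 and 185 without. Every induced array lay far below every array without induction, at all times. Its 24 h log2 change was -3.36 ± 0.24 SE, which left 9.71% of the signal, and 65.4% of that change was present at 6 h. From 6 h to 24 h the level of induced plants moved by -0.44 on the log2 scale, with overlapping arrays, while that of plants without induction moved by 0.73. The change with induction at 24 h minus that at 6 h, -1.17 ± 0.34 SE, is the movement of induced plants minus that of plants without induction.

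AT4G30170, for which no role is given here, had most of its 24 h difference at 6 h. The 6 h signals were 54.2, 34.2 and 52.8 in induced plants and 177, 148 and 156 in plants without induction. At 12 h they were 41.6, 44.6 and 52.8 with induction and 162, 169.6 and 216 without it. The 24 h arrays read 37.7, 85.8 and 43.4 in induced plants and 274, 234 and 236 in plants without induction. The groups were apart at each time, and induced replicate 2 at 24 h was the highest induced array of the gene. Log2 changes were -1.79 ± 0.23 SE, -1.97 ± 0.23 SE and -2.25 ± 0.23 SE at 6 h, 12 h and 24 h, so 79.6% of the 24 h change was present at 6 h, the highest share of the 5 genes. The level in induced plants hardly moved between times, by 0.00 on the log2 scale at 12 h against 6 h and by 0.17 at 24 h against 12 h, with overlapping arrays.

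AT1G30870, also a peroxidase gene without a role given here, was lowest in induced plants at 12 h. At 6 h the induced arrays had 42.5, 53.4 and 40.3, and the arrays without induction 98.0, 74.6 and 125. The signals of 12 h were 24.7, 16.5 and 26.9 in induced plants and 128, 113 and 111 in plants without induction. At 24 h induced plants had 44.6, 57.1 and 37.7, against 149, 214 and 189 in plants without induction. Groups were apart at all times, and the induced arrays of 12 h lay below all those of 6 h and 24 h. In induced plants the log2 difference was -1.02 at 12 h against 6 h and 1.04 at 24 h against 12 h. The log2 changes with induction were -1.10 ± 0.21 SE, -2.40 ± 0.21 SE and -1.99 ± 0.21 SE, at 6 h, 12 h and 24 h.

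**Figure D2:**
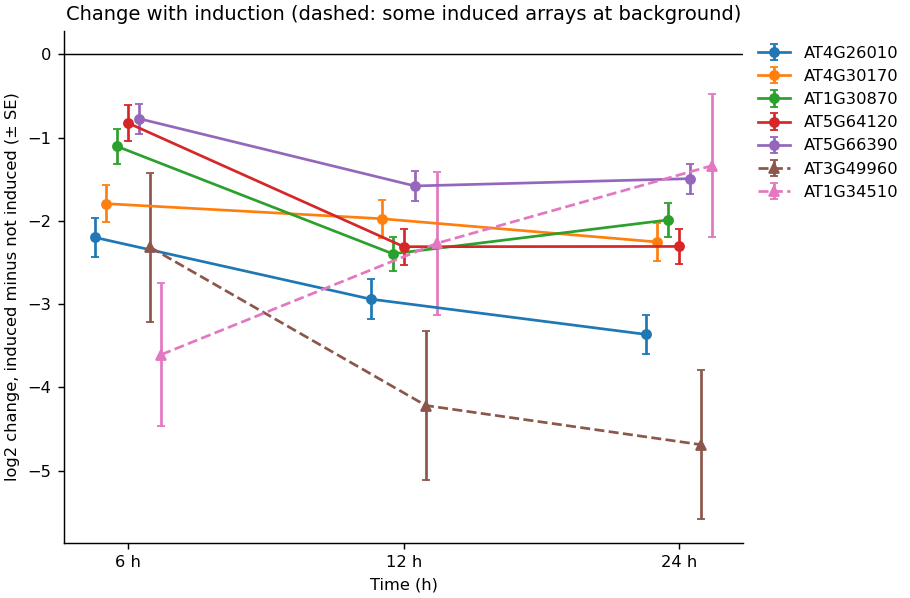
Log2 change of the MAS5 signal, induced minus not induced, at 6 h, 12 h and 24 h for each of the 7 peroxidase genes, with SE bars from the limma fit over all 18 arrays. AT5G64120 and AT5G66390 start near -0.8 at 6 h, AT4G26010 is the lowest of the solid lines at each time with -3.36 at 24 h, and the dashed lines of AT3G49960 and AT1G34510 have SE of 0.90 and 0.86.

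AT3G49960 and AT1G34510 were near background, so the size of their change was measured poorly. AT3G49960 had signals of 2.79, 8.87 and 6.19 in induced plants and 32.6, 20.4 and 28.5 in plants without induction at 6 h. At 12 h it had 1.28, 0.613 and 2.57 in induced plants, all at background, and 32.6, 22.2 and 18.0 without induction. At 24 h induced arrays read 0.474, 13.6 and 0.411, of which only that of replicate 2 was above background, and arrays without induction 36.9, 32.0 and 38.5. All arrays without induction lay above all induced arrays, and the 12 h level in induced plants was at least 4.24-fold lower than without induction. The fitted log2 changes were -2.32 ± 0.90 SE, -4.22 ± 0.90 SE and -4.69 ± 0.90 SE. At 24 h the value was -6.34 without induced replicate 2 and -2.16 with signals below background raised to it, and at 12 h it was -2.08 with raised signals.

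AT1G34510 stood above background in plants without induction on 3, 1 and 2 of 3 arrays at 6 h, 12 h and 24 h, and on 0 of 9 arrays in induced plants. Its 6 h signals were 0.441, 3.35 and 0.566 in induced plants and 11.7, 13.2 and 9.74 without induction, a level at least 2.04-fold lower with induction. The 12 h signals were 1.52, 0.352 and 1.31 in induced plants and 6.63, 2.72 and 4.37 in plants without induction. At 24 h they were 0.697, 2.02 and 3.99 in induced plants and 7.37, 6.50 and 1.89 in plants without induction. The groups were apart at 6 h and 12 h and overlapped at 24 h, where the array without induction of replicate 3 was also at background. The fitted log2 change was -3.61 ± 0.86 SE at 6 h and -1.03 with raised signals, and no fold can be given at 12 h and 24 h, where the background level reached both groups.

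The timing of the change, again a description, varied among the genes. The share of the 24 h log2 change that was present at 6 h lay between 35.7% and 79.6% in the 5 genes above background. This share depends on both groups. From 6 h to 24 h, induced plants moved on the log2 scale by 0.02 for AT1G30870, 0.17 for AT4G30170 and -0.44 for AT4G26010. For AT5G66390 they moved by -0.46 and for AT5G64120 by -1.87. Plants without induction moved by 0.91, 0.63, 0.73, 0.26 and -0.39, in the same order of genes. For 4 of these 5 genes the lowest of the 6 group means was that of induced plants at 12 h, and for AT5G64120 it was that at 24 h. Of these 5 genes, 3 at 6 h, 5 at 12 h and 5 at 24 h had less than 50% of the signal of plants without induction, as a ratio of geometric means.

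Over the 18 arrays, the log2 signals of the 5 genes above background had Pearson correlations of 0.696 to 0.949 in their 10 pairs (median 0.853). These arrays share the difference between induced and not induced plants by which the genes were chosen. The deviations of arrays from their group means, which leave that difference out, had correlations of -0.53 to 0.64 in the same pairs, with a median of 0.19. Between these 5 genes and all other probe sets of 1 gene with a mean signal of at least 20, the median over 37630 pairs was -0.02. These pairs ran from -0.91 to 0.88, a range that holds all 10 pairs of the members, and the difference in medians was not tested.

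In plants without induction, 1 of the 7 genes passed a test of change with time. The same arrays were part of the comparison that chose the genes, so these tests are not independent of the choice and are given as a description of the levels without induction. AT1G30870 averaged 184 ± 32.8 at 24 h and 99.1 ± 25.1 at 6 h (SD, n = 3 each, log2 change 0.91 ± 0.21 SE, limma, adjusted p = 0.00725). At 24 h against 6 h no other of the 7 genes passed the threshold of 0.05, while 9.86% of all probe sets passed. An unadjusted p below 0.05 in limma was reached by 3 of the 7 and by 5338 of all 22746 probe sets. AT4G26010 had 174 ± 31.7 at 24 h and 105 ± 18.3 at 6 h (log2 difference 0.73, limma, adjusted p = 0.0595). For AT4G30170 the means were 248 ± 22.4 at 24 h and 160.1 ± 14.8 at 6 h (log2 difference 0.63, limma, adjusted p = 0.0855). Both pairs of groups were apart. In limma AT4G26010 passed without replicate 1 of not induced plants at 24 h (adjusted p = 0.046) and without replicates 2 or 3 of induced plants at 24 h (adjusted p = 0.0365 and 0.0195). AT4G30170 passed in limma without replicate 2 of induced plants at 24 h (adjusted p = 0.0156).

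At 24 h against 12 h, 0 of the 7 genes passed in limma, while 1.45% of all probe sets did. The unadjusted p was below 0.05 for 4 of the 7 and for 2483 of all 22746 probe sets. Of these 4 genes, AT5G64120 had a log2 difference of -0.63 ± 0.21 SE (limma, adjusted p = 0.201). AT5G66390 had one of 0.63 ± 0.18 SE (limma, adjusted p = 0.103), and both had groups apart. At 12 h against 6 h, 0 of the 7 passed in limma, while 2.91% of all probe sets passed. An unadjusted p below 0.05 was found there for 0 of the 7 and for 3940 of all 22746 probe sets. For 5 of the 7 genes the highest group mean was that of plants without induction at 24 h. The exceptions were AT5G64120, highest without induction at 12 h, and AT1G34510, highest without induction at 6 h. In the order of means, plants without induction took the upper 3 places for all 7 genes. Some neighbours in that order had overlapping arrays, which is a description and not a test of their difference. Without induction these were the 12 h and 6 h groups of AT1G30870, AT3G49960, AT4G26010, AT4G30170 and AT5G64120, the 24 h and 12 h groups of AT4G26010 and AT1G34510, and the 24 h and 6 h groups of AT3G49960, AT5G64120 and AT5G66390. In induced plants they were the 24 h and 6 h groups of all genes but AT5G64120, the 24 h and 12 h groups of AT3G49960, AT4G26010 and AT5G64120, and the 12 h and 6 h groups of AT4G30170 and AT1G34510. For AT1G34510 the induced plants of 24 h also overlapped with the plants without induction of 12 h.

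The members lie on chromosomes 1, 3, 4 and 5 of the RefSeq annotation, with gene lengths of 1343 to 1818 bp. Within 2 genes on either side, AT5G64120 alone had other class III peroxidase genes: it is adjacent to AT5G64110, which is adjacent to AT5G64100. AT5G64110 had log2 changes with induction of 0.03 ± 0.25 SE, -0.21 ± 0.25 SE and 0.28 ± 0.25 SE at 6 h, 12 h and 24 h (limma, adjusted p = 0.978, 0.741 and 0.59), with overlapping groups at each time. AT5G64100 fell at 24 h, to 142 ± 11.7 in induced plants, against 249.7 ± 2.43 in plants without induction (SD, n = 3 each, log2 change -0.82 ± 0.18 SE, limma, adjusted p = 0.00502). Its log2 changes were -0.08 ± 0.18 SE at 6 h and -0.37 ± 0.18 SE at 12 h, where it did not pass (limma, adjusted p = 0.901 and 0.293). Whether the 3 neighbours differed in their change was not tested.

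**Figure D3:**
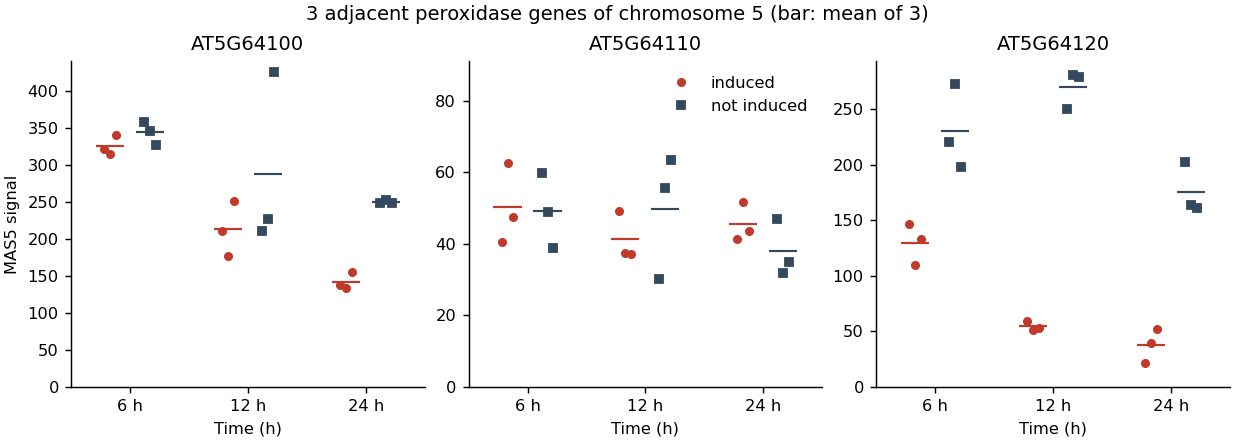
MAS5 signal against time for 3 adjacent class III peroxidase genes of chromosome 5, with 1 point per array (circles: induced, squares: not induced), bars for the mean of 3 and a linear axis of its own in each panel. The groups of AT5G64120 are apart at each time, those of AT5G64100 at 24 h, and those of AT5G64110 overlap throughout.

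The 48 other class III peroxidase genes with a probe set of their own were what remained of the family list once the 7 had been taken out with results known, and they were tested. Of these, 38 were above background on all 3 arrays of at least 1 group. At 6 h, 4 of the 48 fell and 0 rose (limma, adjusted p below 0.05), while 0.396% of all probe sets fell and 0.572% rose. The unadjusted p at 6 h was below 0.05 for 13 of the 48 and for 2963 of all 22746 probe sets. After 12 h, 6 fell and 1 rose, with 1.93% and 2.91% over all probe sets. At 24 h, 11 fell and 2 passed upward, of which AT5G19880 lay at background in both groups, with 3.9% and 4.43% over all probe sets. The median log2 change of the 48 was -0.14, -0.19 and -0.45 at 6 h, 12 h and 24 h. In all, 12 genes fell at 1 time or more, 2 passed upward, AT5G19880 among them, and 34 passed at none. The share of all probe sets that passed at 1 time or more is not given here, so these totals are only a description.

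AT2G18980, AT4G11290 and AT5G17820 fell at all 3 times. The share of all probe sets that did so was not counted, and it cannot exceed the 0.396% that fell at 6 h. AT2G18980 had 56.2, 62.0 and 52.7 in induced plants and 329.6, 346 and 346 in plants without induction at 24 h, with arrays far apart. Its log2 change was -1.81 ± 0.12 SE, -2.41 ± 0.12 SE and -2.58 ± 0.12 SE at 6 h, 12 h and 24 h (limma, adjusted p = 1.22e-07, 3.18e-10 and 1.4e-10). AT5G17820 had 88.1, 111 and 104 in induced plants at 24 h, against 235, 269 and 257 in plants without induction. Its groups were apart at every time, with log2 changes of -0.94 ± 0.12 SE, -1.14 ± 0.12 SE and -1.34 ± 0.12 SE (limma, adjusted p = 0.000268, 6.26e-06 and 5.34e-07). For AT4G11290 they were -1.25 ± 0.23 SE, -1.50 ± 0.23 SE and -1.49 ± 0.23 SE (limma, adjusted p = 0.0072, 0.00031 and 0.000186).

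Falls at 12 h and 24 h were found for AT3G01190, AT2G37130 and AT2G35380. AT3G01190 had 36.1, 34.6 and 15.7 in induced plants at 24 h and 230.1, 264 and 272 in plants without induction, arrays far apart. Its log2 changes were -0.95 ± 0.27 SE at 6 h, -2.52 ± 0.27 SE at 12 h and -3.24 ± 0.27 SE at 24 h (limma, adjusted p = 0.0987, 4.22e-06 and 1e-07). AT2G37130 changed by -1.05 ± 0.23 SE at 12 h and -1.75 ± 0.23 SE at 24 h (limma, adjusted p = 0.00912 and 4.13e-05), and its 12 h call was lost without not induced replicate 3 (adjusted p = 0.0553). AT2G35380 changed by -0.70 ± 0.20 SE at 12 h, and by -1.12 ± 0.20 SE at 24 h (limma, adjusted p = 0.0488 and 0.000942). Its 12 h call was lost in 14 of 28 alternatives, among them those without any 1 of the 6 arrays of 12 h (limma, adjusted p = 0.0768 to 0.162).

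A fall at 24 h was found in addition for AT5G15180, AT4G33420, AT5G64100, AT3G28200 and AT2G39040. AT4G33420 had a log2 change of -0.94 ± 0.15 SE and AT5G15180 one of -1.59 ± 0.35 SE (limma, adjusted p = 0.000231 and 0.00645). AT3G28200 changed by -0.60 ± 0.14 SE (limma, adjusted p = 0.00725), with adjusted p = 0.0535 when only the 24 h arrays were fitted. AT2G39040 was above background on 1 of 3 induced arrays and had a log2 change of -3.47 ± 1.02 SE (limma, adjusted p = 0.0386), a call lost in 7 of 27 alternatives. These included the fits without any 1 of the 3 replicates without induction (limma, adjusted p = 0.0889 to 0.102), without induced replicate 2 (adjusted p = 0.0528) and without induced replicate 3 (log2 change -2.08, adjusted p = 0.235). AT5G51890 fell at 6 h, with a log2 change of -0.56 ± 0.12 SE (limma, adjusted p = 0.0264), a call lost in 7 of 28 alternatives, with adjusted p = 0.131 without not induced replicate 1. Leaving out any 1 of the 3 induced replicates at 6 h also ended it (limma, adjusted p = 0.0564 to 0.117).

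A rise above background was found for AT1G44970. AT1G44970 had 59.2, 70.3 and 80.6 in induced plants at 24 h and 39.6, 33.3 and 30.0 in plants without induction, without overlap. Its log2 change was 0.93 ± 0.18 SE at 12 h and 1.03 ± 0.18 SE at 24 h (limma, adjusted p = 0.00302 and 0.000775). AT5G19880 lay at background on all 6 arrays of 24 h, so its change was not measured although it passed as a rise (limma, adjusted p = 0.00542, and 0.216 with raised signals). AT2G24800 passed at no time (limma, adjusted p = 0.155, 0.147 and 0.102 at 6 h, 12 h and 24 h). Its log2 changes were 3.09 ± 0.97 SE, 2.64 ± 0.97 SE and 2.66 ± 0.97 SE, with groups apart at each time. It was above background on 3 of 3 induced arrays at each time. Without induction it was so on 0, 0 and 1 of 3 arrays, so the size of its change was measured poorly. The 3 other family genes with the highest mean signal without induction were PRXR1 (AT4G21960), AT1G71695 and AT5G64100. PRXR1 averaged 5012 ± 602 in induced plants and 3851 ± 152 in plants without induction at 24 h (SD, n = 3 each, log2 change 0.37 ± 0.16 SE, limma, adjusted p = 0.178). AT1G71695 averaged 594 ± 58.1 in induced plants and 562 ± 45.9 in plants without induction (log2 change 0.08 ± 0.15 SE, limma, adjusted p = 0.84).

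**Figure D4:**
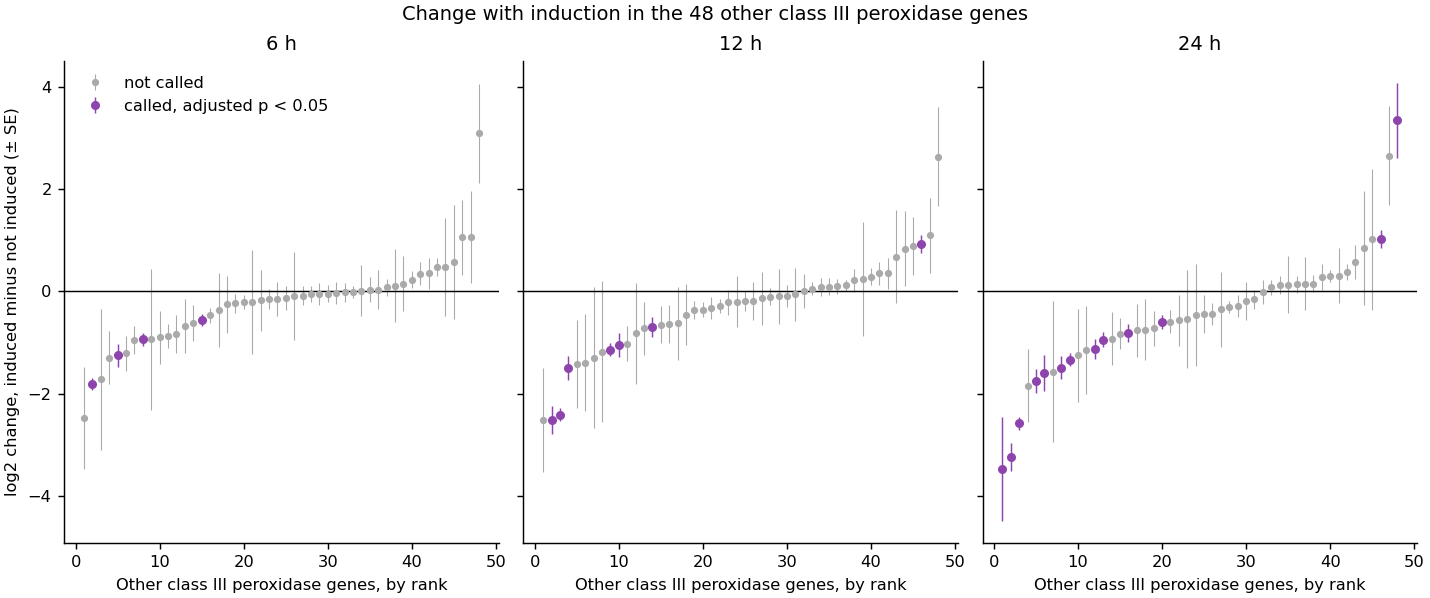
Log2 change of the MAS5 signal, induced minus not induced, with SE bars, for the 48 other class III peroxidase genes, ranked from lowest to highest in each of 3 panels for 6 h, 12 h and 24 h. Filled purple points passed an adjusted p of 0.05: 4 fell at 6 h, 6 fell and 1 rose at 12 h, and 11 downward and 2 upward at 24 h, the upper one, AT5G19880, at background in both groups.

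Of the 4 shared probe sets, that of AT4G37530 and AT4G37520 fell at 12 h and 24 h, by log2 changes of -1.06 ± 0.18 SE and -1.29 ± 0.18 SE (limma, adjusted p = 0.00118 and 0.000102). That of AT2G38390 and AT2G38380 changed by -0.60 ± 0.11 SE at 24 h (limma, adjusted p = 0.0012) and that of AT3G42570 and AT3G17070 by 0.58 ± 0.17 SE (adjusted p = 0.0338). Which gene of a pair gave the signal cannot be told from these probe sets. AT2G18150 and AT2G18140 shared the last one, which passed at 0 of 3 times.

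The change with induction differed between 24 h and 6 h for 3 of the 48 other genes, and for 1.61% of all probe sets, by a test of the difference itself. For AT3G01190 the difference of the log2 changes, 24 h minus 6 h, was -2.29 (limma, adjusted p = 0.00392), and for AT2G18980 it was -0.77 (limma, adjusted p = 0.0312). For AT5G51890 it was 0.87 (limma, adjusted p = 0.014), a call lost with no intensity trend (adjusted p = 0.076). The call of AT2G18980 was lost in 6 of 28 alternatives, no intensity trend and the fits without replicate 2 of either 6 h group, not induced replicates 2 or 3 of 24 h or induced replicate 3 of 24 h (limma, adjusted p = 0.0706 to 0.0987). Between 24 h and 12 h 0 of the 48 and 0 of all 22746 passed in limma, with 6 and 1591 at an unadjusted p below 0.05. Between 12 h and 6 h 0 of the 48 and 0.193% of all probe sets passed in limma, with 3 and 2415 at an unadjusted p below 0.05. As a description for the 7 genes, the log2 change with induction at 24 h minus that at 6 h was -1.48 for AT5G64120, -1.17 for AT4G26010, -0.88 for AT1G30870, -0.72 for AT5G66390 and -0.46 for AT4G30170. For the genes near background it was -2.37 for AT3G49960 and 2.27 for AT1G34510.

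Some other family genes also passed the test of change with time in plants without induction. At 24 h against 6 h, 7 of the 48 (14.6%) passed, 3 upward and 4 downward, while 9.86% of all probe sets passed. AT5G17820 rose by 1.07, AT3G01190 by 1.16 and AT2G18980 by 0.79 on the log2 scale (limma, adjusted p = 1.16e-05, 0.00741 and 0.000297). These 3 also fell with induction at 12 h and 24 h. That fall at 24 h and this rise share the arrays without induction of 24 h, so they are not independent. AT1G14550, AT5G05340 and AT5G39580 fell, with log2 changes of -1.76, -1.24 and -1.09 (limma, adjusted p = 0.0351, 0.021 and 0.0462), and AT5G19880 passed although its arrays lay at background at both times.

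By likeness over the 18 arrays, measured as Pearson's r of log2 signals, another peroxidase gene led for 2 of the 5 members above background. AT2G18980 was most like AT4G26010 (r = 0.984) and AT4G30170 (r = 0.961). AT1G30870 was most like EXPA18 (r = 0.948), an expansin gene of root hairs, then AT2G18980 (r = 0.946) and the endoglucanase gene GH9C1 (r = 0.945). AT3G54040 led for AT5G64120 (r = 0.935) and AT3G46280 for AT5G66390 (r = 0.933). Next in rank were AT1G18980 and EXPA18 for AT4G26010, AT1G18980 and AT2G47540 for AT4G30170, AT1G30700 and AT5G48430 for AT5G64120, and AT1G17860 and AT5G67630 for AT5G66390. By the mean r with the 5 genes, over 7526 probe sets, AT1G18980 (0.913), AT2G18980 (0.907), AT3G46280 (0.906), EXPA18 (0.900), AT4G11290 (0.896) and AT3G01190 (0.892) came first. AT1G04040, AT3G54040, AT1G51830 and AT5G04960 followed. Of these 10, 3 are class III peroxidase genes, and all 10 share with the members the split between induced and not induced arrays. The share of such peroxidase genes among the 7526 probe sets is not given here, so the ranking is only a description.

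Marker lists of other cell types and pathways were measured in small part, with 3 of 23 root hair genes, 2 of 10 general root genes, 2 of 6 leaf genes and 3 of 5 guard cell genes, and 0 of 11 endodermis and 0 of 10 xylem and stele genes. Of the 3 root hair genes measured, 2 fell at each time, EXPA7 and EXPA18, and 1 rose at 12 h. EXPA18 averaged 19.4 ± 4.12 in induced plants and 58.3 ± 7.24 in plants without induction at 24 h (SD, n = 3 each, log2 change -1.60, limma, adjusted p = 3.18e-05). For EXPA7 the means were 10.5 ± 0.549 in induced plants and 42.7 ± 7.80 in plants without induction (log2 change -2.01, limma, adjusted p = 0.000507). At 12 h the log2 changes were -1.18 for EXPA18 and -1.51 for EXPA7 (limma, adjusted p = 0.00133 and 0.00983), and the EXPA7 call was lost without induced replicate 2 (limma, adjusted p = 0.0752). At 6 h they were -0.87 and -1.52 (limma, adjusted p = 0.0477 and 0.0316), calls lost in 18 of 28 and 8 of 27 alternatives, among them those without not induced replicates 1, 2 or 3 or induced replicates 1 or 3 of 6 h for both genes. The median log2 change of the 3 genes was -0.87, -1.18 and -1.60 at 6 h, 12 h and 24 h. Their summed signal at 24 h was 323 to 365 in induced plants and 332 to 380.1 in plants without induction. Most of this sum came from SCN1 in every group, so it mainly follows that gene and not EXPA7 and EXPA18. At 6 h it was 279.8 to 315 in induced plants and 309 to 417 in plants without induction, and at 12 h 351 to 426 in induced plants and 300.5 to 327 in plants without induction.

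PYK10, a root beta-glucosidase gene, averaged 3258 ± 109 in induced plants and 3914 ± 123 in plants without induction at 24 h (SD, n = 3 each, log2 change -0.27, limma, adjusted p = 0.208), and its log2 changes were -0.02 at 6 h and -0.12 at 12 h. The other general root gene measured, AT1G62500, had log2 changes of 0.21, -0.27 and -0.42 (limma, adjusted p = 0.753, 0.63 and 0.322). The summed signal of both was 3201 to 3414 in induced plants and 3871 to 4109 in plants without induction at 24 h. At 6 h it was 3686 to 4430.5 in induced plants and 3707 to 4205 in plants without induction, and at 12 h 3485 to 4177 in induced plants and 4164 to 4262 in plants without induction. The leaf genes LHCB4.1 and RCA had summed signals of 7987 to 11448 in induced plants and 8214 to 9069.6 in plants without induction at 24 h, and 0 of 2 passed at any time. At 6 h these were 8758 to 13774 in induced plants and 10823 to 12836 in plants without induction. The guard cell genes had summed signals of 94.6 to 125 in induced plants and 80.3 to 101 in plants without induction at 24 h, and 0 of 3 passed at any time. The part of these cell types in the lower signals of the 7 genes was not tested.

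Of genes for hydrogen peroxide supply and removal, 2 of 19 were measured. AT4G25090, which encodes an NADPH oxidase, a source of superoxide, was above background on 1 of 3 induced arrays at 12 h and at 24 h and had log2 changes of -2.50 at 12 h and -2.60 at 24 h (limma, adjusted p = 0.0257 and 0.0132). The 12 h call was lost without not induced replicates 2 or 3 or induced replicates 1 or 2 (limma, adjusted p = 0.0670 to 0.128). The 24 h call was lost without not induced replicates 2 or 3 or induced replicate 1 (limma, adjusted p = 0.0540 to 0.0654). RBOHE, another NADPH oxidase gene, had log2 changes of 0.47, 0.93 and 0.27 and did not pass. HCT, of monolignol synthesis, was the 1 of 19 lignin genes measured, and its log2 changes were -0.17, -0.09 and -0.02 (limma, adjusted p = 0.399, 0.677 and 0.943).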

How the data were processed

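RNA of 18 samples was hybridised to 18 single-colour ATH1 arrays, labelled with biotin per the labels. Each array's values are linear intensity signals that the authors computed with MAS5 in GCOS before they were deposited, per the submitters' processing notes, which give no versions or target of scaling. With 2% of probe sets trimmed at either end, array means were 99.95 to 99.96, so the arrays had been brought to a common level. All 22746 probe sets other than the 64 controls were tested, without a filter, of 22810 in all. Names came from the platform annotation, updated by locus through the RefSeq table, and 13513 probe sets had 1 gene, 503 several and 8730 none.

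A limma fit (version 3.58.1, R 4.3.3) to log2 signals estimated 6 group means from all 18 arrays, with empirical Bayes moderation and an intensity trend (12 residual and 7.69 prior degrees of freedom). The Benjamini-Hochberg adjustment ran over all 22746 probe sets in each contrast, and 0.05 was the threshold. Other values and the figures came from Python 3.11.15 (pandas 2.3.3, numpy 2.4.6, scipy 1.17.1, matplotlib 3.10.9). Tested on simulated data set up as the 6 h comparison, the fit found 48.0% of 2-fold changes, 73.0% of 4-fold changes and 81.0% of 2-fold changes among 58 bright probe sets. For the difference in change with induction between times, it found fewer 2-fold changes. These were 25.0% for 12 h against 6 h, 37.0% for 24 h against 12 h and 27.0% for 24 h against 6 h.

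The members, the gene lists and the definition of background were chosen with earlier results of these data known, and the members were not tested in the comparison that chose them. Of other family genes, those past the threshold at any time and the 3 with the highest mean signal without induction were named. Of other lists, up to 4 past the threshold were named, except 1 root hair gene, counted as a rise at 12 h, that is not named here. RBOHE, PYK10, AT1G62500, LHCB4.1, RCA and HCT were added after their values were seen, as were AT5G64110, AT2G24800 and the family genes that changed with time without induction. Likeness was Pearson's r over 18 arrays with probe sets of 1 gene and a mean signal of at least 20. Same-numbered induced and not induced arrays did not deviate together (correlations of -0.119 to 0.064), so replicate numbers were not taken as pairs. Alternatives, fixed with earlier results known, were quantile normalization, arrays shifted to 1 median, a filter at the 40th percentile of mean signal, an offset of 5.66 before the log, signals raised to background, no intensity trend, array weights, the replicate block, a table without probe sets of several genes, fits on only the arrays compared, and 18 fits that each leave out 1 array.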

Additional observations from a re-analysis of the deposited data

Results flagged for a closer look

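Among family genes outside the 7, the change with induction differed between 24 h and 6 h by a test of the difference itself for 3 genes and 2 shared probe sets. The log2 change at 24 h minus that at 6 h was -2.29 for AT3G01190 (limma, adjusted p = 0.00392) and -0.77 for AT2G18980 (limma, adjusted p = 0.0312). It was 0.87 for AT5G51890 (limma, adjusted p = 0.014), whose induced mean was 183 ± 8.42 at 6 h against 273 ± 53.0 without induction, and 376 ± 63.1 at 24 h against 302 ± 20.5 without induction (SD, n = 3 each). For the probe set shared by AT3G42570 and AT3G17070 it was 1.01 (limma, adjusted p = 0.0332), and for that of AT2G38390 and AT2G38380 it was -0.79 (limma, adjusted p = 0.0145). Of these, AT2G18980 lost the call with no intensity trend and in 5 of 18 fits that left out 1 array (limma, adjusted p up to 0.0987). These were replicate 2 of either 6 h group, not induced replicates 2 and 3 of 24 h and induced replicate 3 of 24 h. AT5G51890 lost it with no intensity trend (limma, adjusted p = 0.076), and AT3G01190 lost it under 0 of 28 alternatives.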

How the results depend on the processing

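Of 582 log2 changes of the 7 genes with induction under the 28 alternatives, 1 reversed: AT1G34510 at 24 h, 0.11 with signals raised to background, where both groups were near that level. The median log2 change of the 7 at 6 h was -1.82 with quantile normalization, -1.86 with 1 median for all arrays, -1.10 with the filter, which removes the 2 dim genes, -1.30 with the offset, -1.10 with raised signals, -1.87 with array weights, and -1.89 to -1.58 without single arrays (-1.58 without induced replicate 2 of 6 h). Of the 7 genes without induction, the number changed at 24 h against 6 h was 2 with the filter, with the offset and with raised signals, 3 with only the arrays compared, and 1 to 3 without single arrays. At 24 h against 12 h it was 1 with array weights, 3 with only the arrays compared, and 0 to 1 without single arrays. Of the other family genes, 1 rose at 6 h with the offset (0 to 1 without single arrays) and 1 at 24 h with the filter. A changed response was found for 1 at 12 h against 6 h with raised signals (0 to 1 without single arrays) and for 1 at 24 h against 6 h with no intensity trend. Root hair genes fell at 6 h in numbers of 1 with the filter, 0 with no intensity trend, 0 with array weights, 0 with only the arrays compared, and 0 to 2 without single arrays. At 12 h, 1 fell with the filter and with only the arrays compared, and 1 to 2 without single arrays, and at 24 h 1 with the filter. Of the other lists, without sperm cell genes, the number changed at 12 h was 0 with the filter, 2 with raised signals, 0 with no intensity trend and 0 to 1 without single arrays, and at 24 h 0 with the filter and 0 to 1 without single arrays. The cause was not tested where none is given.

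With the replicate number as a block, which does not pair these samples, 1 root hair gene fell at 6 h, and no other count given here moved by over 1.5 times. AT2G35380 at 12 h and EXPA18 at 6 h then missed the threshold (limma, adjusted p = 0.0678 and 0.0727). Over all probe sets the calls were 67 to 279 at 6 h, 615 to 1558 at 12 h and 1161 to 2974 at 24 h. Signals near background limit AT3G49960 and AT1G34510 most.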
